A study of Mus musculus with 14 samples.

Results

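Among 14 samples of the mouse mammary tumor line 4T1, 3 cultures held a high level of Esrp1 together with a low level of Cldn7. These intermediate cultures were compared across genes with 6 epithelial cultures, in which both genes were high. The cultures were grouped by the array values themselves and not by their labels: on the log2 scale, a culture was called intermediate with Esrp1 above 9 and Cldn7 below 9, and epithelial with both above 9, using for each gene the probe set with the highest mean. The remaining 5 cultures had Esrp1 below 9 and are called Esrp1-low here. Since measured values chose the groups, the comparison is a description and carries no test, and Esrp1 and Cldn7 themselves are not findings of it.

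The intermediate cultures were vector control replicates 1 and 3 and CNOT7 over-expression replicate 2, and values of intermediate cultures are given below in that order. The epithelial cultures were vector control replicate 2, CNOT7 over-expression replicate 1, sh74 replicate 2, sh75 replicate 1, and shScramble replicates 1 and 2. The Esrp1-low cultures were CNOT7 over-expression replicate 3, sh74 replicate 1, sh75 replicates 2 and 3, and shScramble replicate 3. The vector control and CNOT7 over-expression cells carried an over-expression lentivector, either the control vector or one with human FLAG-tagged CNOT7 behind the mouse Pol2 promoter, and were selected with blasticidin. The other cells carried a hairpin against Cnot7 (sh74 or sh75) or a scrambled hairpin, and were selected with puromycin. CNOT7 is a deadenylase of the CCR4-NOT complex, which shortens the poly(A) tails of mRNAs. All 3 intermediate cultures therefore carried an over-expression vector, against 2 of the 6 epithelial cultures, and no hairpin culture was intermediate. A difference over the 9 cultures thus mixes class with vector type, and the part of the vector type in it cannot be told apart. Differences within the 5 cultures with an over-expression vector are given as well for some genes and lists. In the mouse, 4T1 is a transplantable tumor of BALB/c origin, but these were cells of 1 established line in culture, and the sources do not say whether replicates came from separate transductions.

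Carcinoma cells can lose epithelial features in steps, a process known as epithelial-mesenchymal transition. Esrp1 encodes a splicing regulator that sets the epithelial forms of many transcripts. Claudins such as Cldn7 are membrane proteins of the tight junction, and Cldn7 also binds the adhesion molecule Epcam. Rab25 is an epithelial GTPase of the Rab11 family that recycles membrane proteins to the cell surface.

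Esrp1 was 10.08, 10.01 and 9.73 in the intermediate cultures. In the epithelial cultures it was 10.56 at the lowest, 10.70 at the median and 11.01 at the highest. The highest value among the Esrp1-low cultures was 6.50. CNOT7 over-expression replicate 2, at 9.73, was the culture nearest to the threshold of 9 for this gene. Cldn7 was 6.01, 5.98 and 7.84 in the intermediate cultures and 10.08, 10.23 and 10.92 at the lowest, median and highest in the epithelial ones. CNOT7 over-expression replicate 2, at 7.84, was the intermediate culture nearest to the threshold, and shScramble replicate 1, at 10.08, the epithelial culture nearest to it. The Cldn7 values of vector control replicates 1 and 3 lay within the range of the Esrp1-low cultures, 5.78 to 6.79. Thresholds of 8.5 or 9.5 gave the same 3 and 6 cultures.

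**Figure D1:**
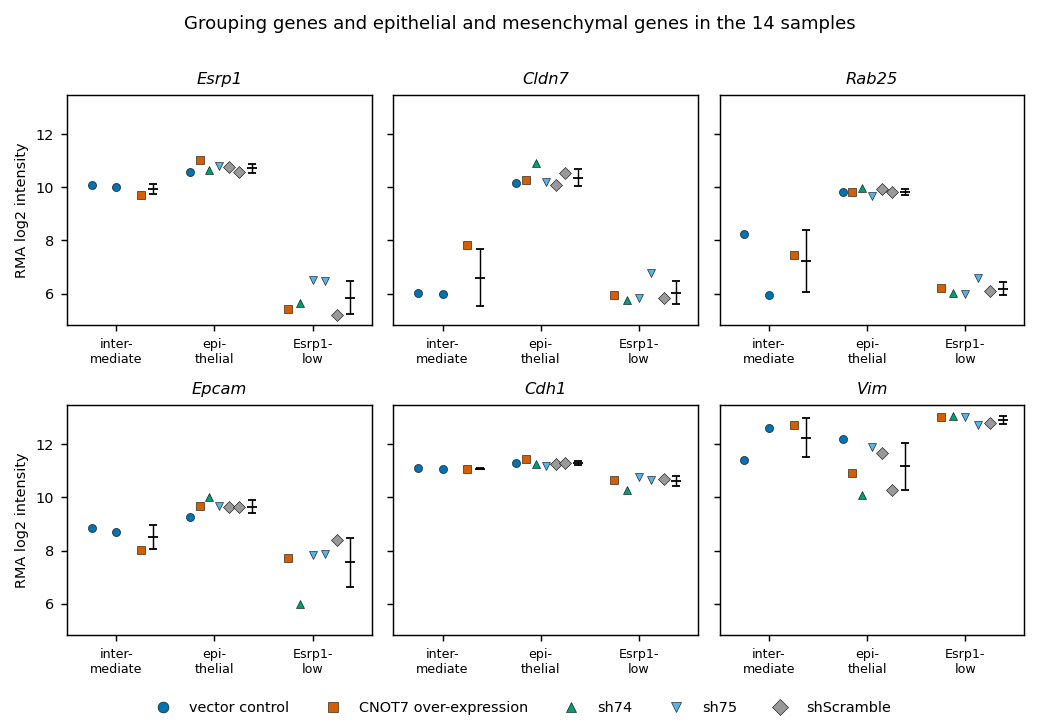
RMA log2 intensity (y axis) of Esrp1, Cldn7, Rab25, Epcam, Cdh1 and Vim in the 14 samples, arranged by class (x axis) with the treatment shown by color and symbol; black bars give the mean ± SD of each class. Esrp1 lies at 9.73 or above in the intermediate and epithelial cultures, Rab25 spans 5.96 to 8.25 in the intermediate ones, and Cdh1 lies close to 11 in both classes.

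The overall signal of the arrays differed little. Vector control replicate 1 and CNOT7 over-expression replicate 2 had the lowest array medians of the 14, each 6.31. Array medians ran from 6.31 to 6.33 in the intermediate and from 6.33 to 6.37 in the epithelial cultures, and medians of olfactory receptor probe sets, a measure of background, lay between 3.92 and 3.98 in all 14. Across probe sets, Pearson's r was 0.992 to 0.995 between intermediate cultures and 0.985 to 0.993 between an intermediate and an epithelial one. The number of arrays limited the precision. Markers of other cell types had low means that were alike in both classes. The mean of the 16 immune markers measured was 5.09 to 5.29 in the intermediate and 5.1 to 5.33 in the epithelial cultures. That of the 10 endothelial, 12 fibroblast and pericyte, and 8 adipocyte markers stayed between 5.1 and 5.46 in both. In each of these 4 lists, 7 markers had a class mean above 4.89, the 90th percentile of olfactory receptor probe sets, so not all were at background. Ptprc, which defines leukocytes, was 4.62, 4.54 and 4.64 in the intermediate cultures. One immune marker, Csf1r, did differ and is described below. Of the 8 adipocyte markers, 1 was lower without overlap in the intermediate cultures and 7 had a lower mean. The median difference of that list was small, -0.02.

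Of the 21787 probe sets compared, which exclude those of Esrp1 and Cldn7, 43 were lower in every intermediate than in every epithelial culture with group means at least 2-fold apart (0.197%), and 11 were higher by the same measure (0.0505%). Without the demand on size, 679 were lower without overlap (3.12%) and 586 higher (2.69%). These shares are the background for every count of list members without overlap given below. The median difference over all probe sets was 0.00. Differences below are intermediate minus epithelial means of log2 values, so that -1 is a 2-fold lower mean intensity, and in these bulk samples fewer cells with a transcript and less of it per cell cannot be told apart.

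The 43 probe sets that were lower included genes of membrane trafficking, tight junctions and the cell surface, among others. The promoters of 5 of these genes are printed because each holds the E-box CACCTG, the sequence that repressors of the Snail and Zeb families are known to bind. The window runs from 250 bases before to 50 after the transcription start in RefSeq (mouse build GRCm38.p6), 5′ to 3′ on the strand of the gene, and capitals mark CACCTG or its reverse complement.
Cldn3 (chr5:134985964-134986263, plus strand): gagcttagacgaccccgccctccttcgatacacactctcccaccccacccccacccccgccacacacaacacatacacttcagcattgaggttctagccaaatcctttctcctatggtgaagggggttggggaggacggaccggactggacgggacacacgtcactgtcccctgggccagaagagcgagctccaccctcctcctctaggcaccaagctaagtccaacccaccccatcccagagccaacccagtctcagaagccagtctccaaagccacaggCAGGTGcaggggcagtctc
Rab25 (chr3:88548230-88548529, minus strand): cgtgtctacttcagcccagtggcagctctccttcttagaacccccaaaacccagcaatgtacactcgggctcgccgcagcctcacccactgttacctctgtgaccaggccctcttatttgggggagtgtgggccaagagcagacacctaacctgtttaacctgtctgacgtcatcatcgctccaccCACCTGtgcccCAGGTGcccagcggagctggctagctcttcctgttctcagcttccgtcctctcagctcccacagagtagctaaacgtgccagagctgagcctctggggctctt
Ap1m2 (chr9:21312284-21312583, minus strand): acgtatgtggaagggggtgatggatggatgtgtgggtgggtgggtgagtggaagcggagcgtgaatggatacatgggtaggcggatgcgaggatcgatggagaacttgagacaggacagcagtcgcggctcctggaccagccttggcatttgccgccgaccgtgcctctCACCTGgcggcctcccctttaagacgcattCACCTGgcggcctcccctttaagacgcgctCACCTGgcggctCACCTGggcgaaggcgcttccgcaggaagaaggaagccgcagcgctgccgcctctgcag
Tspan1 (chr4:116167549-116167848, minus strand): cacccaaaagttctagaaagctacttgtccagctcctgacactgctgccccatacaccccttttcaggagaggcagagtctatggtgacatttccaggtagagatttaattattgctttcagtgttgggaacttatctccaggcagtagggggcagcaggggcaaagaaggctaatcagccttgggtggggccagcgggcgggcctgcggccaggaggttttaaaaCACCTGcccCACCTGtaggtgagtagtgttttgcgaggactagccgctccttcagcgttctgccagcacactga
Epcam (chr17:87635729-87636028, plus strand): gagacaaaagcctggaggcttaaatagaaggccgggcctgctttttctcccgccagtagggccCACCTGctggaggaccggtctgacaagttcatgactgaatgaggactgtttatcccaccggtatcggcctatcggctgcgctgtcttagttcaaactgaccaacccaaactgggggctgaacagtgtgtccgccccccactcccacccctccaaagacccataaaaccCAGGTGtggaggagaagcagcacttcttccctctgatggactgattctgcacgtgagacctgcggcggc
The Ap1m2 promoter held 4 matches, which began between 81 and 9 bases before the start. Rab25 held 2, at 64 and 53 bases before it, Tspan1 held 2, at 24 and 15 bases before it, and Epcam 2, at 187 and 19 bases before it. The match of Cldn3 began 31 bases after the start. Of the 37 lower genes with a promoter in the table, 16 held at least 1 match on either strand (43.2%) and 7 held at least 2 (18.9%), against 22.6% and 3.32% of all 27025 genes with a promoter. Of the 10 higher genes with a promoter, 3 held a match (30.0%). The motif was chosen with the differences known, and binding was not measured here.

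Trafficking genes of polarized epithelia lay lower in the intermediate cultures. Rab25 was 8.25, 5.96 and 7.46, against 9.65, 9.82 and 9.96 at the lowest, median and highest of the epithelial cultures. The difference was -2.61, with an SD of 1.16 (n = 3) among the intermediate and 0.11 (n = 6) among the epithelial cultures, so the 3 intermediate cultures differed widely from each other while the epithelial ones were nearly equal. Ap1m2, a subunit of the epithelial AP-1B adaptor that sorts cargo to the basolateral membrane, was 7.77, 5.48 and 6.16, against 8.57, 8.91 and 9.34, a difference of -2.48. Mal2, a membrane protein of transcytosis to the apical surface, was 8.90, 7.82 and 5.69, against 8.94, 10.39 and 10.61, a difference of -2.64. For Mal2 the gap between the classes was narrow, since vector control replicate 1, at 8.90, lay just below the lowest epithelial culture. Crb3, a polarity protein of the apical membrane, was lower without overlap by 0.55, and its partner Patj by 0.35. The microtubule-associated gene Map7 was 0.56 lower. In the list of polarity and membrane trafficking genes, 6 of 30 measured were lower without overlap and 0 higher, and the median difference was -0.21. Of all probe sets, 3.12% were lower and 2.69% higher without overlap.

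Tight junction genes differed in a few members only. Cldn3, a claudin that seals the junction, was 6.48, 6.62 and 6.36, against 8.71, 10.04 and 10.28, a difference of -3.30, with SDs of 0.13 (n = 3) and 0.60 (n = 6). All 3 intermediate cultures lay within the Esrp1-low range of 6.35 to 7.24. Tjp3, which encodes the junctional scaffold ZO-3, was 6.44, 6.28 and 6.40, against 6.72, 7.40 and 8.08, a difference of -0.96. Cldn4 overlapped, with 11.34, 11.50 and 10.87 against an epithelial range of 11.44 to 11.85. Ocln, at 9.22, 9.03 and 8.96, overlapped the epithelial range of 8.43 to 9.11, and Tjp1, at 10.25, 10.20 and 10.71, that of 10.15 to 10.41. The tight junction list, without Cldn7, held 2 of 20 measured members lower without overlap, 0 higher, and a median difference of -0.07. The shares over all probe sets were 3.12% and 2.69%.

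At the cell surface, Tspan1, a tetraspanin, was 6.57, 5.25 and 6.0, against 7.22, 8.86 and 9.22, a difference of -2.49. Epcam was 8.85, 8.70 and 8.02, against 9.26, 9.66 and 10.01, a difference of -1.13. Its values in the Esrp1-low cultures ran from 5.98 to 8.41, below vector control replicates 1 and 3. Cdh1, the adherens junction protein E-cadherin, was 11.11, 11.07 and 11.08, against 11.20, 11.28 and 11.43. The Cdh1 difference of -0.20 was small though the groups did not overlap, and all 3 values lay above the Esrp1-low range of 10.28 to 10.77. Jup, which links cadherins to the cytoskeleton, was 0.54 lower without overlap, and the membrane protease St14 was 0.30 lower. Together with Nectin4, 6 of 23 measured genes of the adhesion and surface protease list were lower without overlap and 0 higher. Over all probe sets these shares were 3.12% and 2.69%. The median difference of the list was -0.12.

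Keratins and epithelial regulators differed less. Krt19, a simple epithelial keratin, was 8.87, 9.55 and 10.09, against 10.18, 10.63 and 11.07, a difference of -1.14. Other keratins of simple epithelia overlapped: Krt8 was 11.40, 11.44 and 11.73 against 11.13 to 11.87, and Krt18 was 11.96, 12.02 and 12.13 against 11.73 to 12.30. Of the 23 measured keratin and desmosome genes, Krt19 alone was lower without overlap. Grhl2, a transcription factor that maintains epithelial junction genes, was 8.91, 8.80 and 8.53, against 8.70, 8.88 and 9.04. Esrp2, the paralog of Esrp1, was 9.28, 8.84 and 8.76 against 9.02, 9.23 and 9.37, and all 3 values exceeded the Esrp1-low maximum of 8.58. Gata3, a luminal transcription factor, was 10.10, 10.40 and 10.23, against 10.45, 10.87 and 11.38, and of the 20 measured epithelial regulators only Gata3 did not overlap. Between the vector types, compared below, Gata3 also differed, by -0.61 (SE 0.13) for over-expression minus hairpin vectors.

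Other large differences concerned genes outside the junction. Tc2n, which encodes a C2-domain protein, was 4.14, 4.03 and 4.03, near background, against 4.97, 8.69 and 10.08. The Tc2n difference of -4.14 was the largest of all, but the epithelial cultures themselves spread widely (SD 2.15, n = 6). Ociad2 was 4.70, 4.68 and 4.91, against 6.08, 7.40 and 8.95, a difference of -2.68. Chn1, a Rac GTPase-activating protein, was 5.61, 8.18 and 5.07, against 8.71, 8.90 and 8.99, a difference of -2.59 in which vector control replicate 3 lay closer to the epithelial cultures than to the other 2. Cwh43, whose product acts on GPI anchors, was 7.75, 6.02 and 6.32, against 7.81, 8.95 and 9.62, a difference of -2.19. Bspry, a B-box and SPRY domain gene of epithelia, was 6.0, 5.86 and 5.82, against 7.03, 7.73 and 8.31, a difference of -1.85.

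Genes that respond to oxygen, glucose and nutrients were also among them. Car9, the carbonic anhydrase induced by hypoxia, was 5.58, 6.95 and 5.52, against 8.28, 9.41 and 9.67, a difference of -3.28. Ddit4, an inhibitor of mTORC1 signaling, was 8.61, 8.43 and 8.46, against 9.29, 9.78 and 10.47, a difference of -1.39. The glycolytic regulator Pfkfb3 was 6.69, 6.35 and 6.73, against 6.80, 7.65 and 7.92, a difference of -0.88. These were the only 3 of 31 measured hypoxia and glycolysis genes without overlap, and the median of the list was 0.10, so the list did not lie lower as a whole. Txnip and Arrdc4, related arrestins that glucose induces through the transcription factors MondoA and ChREBP, were 1.06 and 1.75 lower. Txnip was 7.69, 8.39 and 8.39 against 8.90, 9.05 and 9.80, and Arrdc4 was 5.11, 5.11 and 5.09 against 6.36, 6.76 and 7.65. The Txnip promoter is shown because it held the carbohydrate response element, searched as 2 copies of CACGNG 5 bases apart, in capitals below, which 15 of 27025 genes with a promoter held (0.0555%).
Txnip (chr3:96557707-96558006, plus strand): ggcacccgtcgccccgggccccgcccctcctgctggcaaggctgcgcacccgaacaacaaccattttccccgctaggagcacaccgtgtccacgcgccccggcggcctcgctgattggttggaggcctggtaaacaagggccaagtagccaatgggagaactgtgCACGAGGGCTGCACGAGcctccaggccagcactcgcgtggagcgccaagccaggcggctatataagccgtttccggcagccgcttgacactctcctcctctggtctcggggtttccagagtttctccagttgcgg
No match was found in the Arrdc4 window. The large amino acid transporter Slc7a5, at 11.07, 10.86 and 11.13 against 11.23, 11.52 and 11.74, was lower by 0.48, as 1 of 2 genes without overlap among 27 of the amino acid response list, the other being Slc7a1.

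Some genes of signaling pathways differed as well. Gab1, an adaptor below receptor tyrosine kinases, was 6.66, 6.72 and 6.10, against 7.37, 7.75 and 8.58, a difference of -1.39. Erbb3, a receptor of the EGF receptor family, was 8.43, 8.07 and 8.55, against 8.78, 9.24 and 9.34, a difference of -0.80. The Esrp1-low cultures, at 6.80 to 7.32, lay lower still for Erbb3. Plcg2, a phospholipase, was 1.04 lower and the Notch ligand Jag1 1.08 lower. Jag1 was 8.15, 8.39 and 8.49, against 8.71, 9.53 and 10.00. Within the over-expression vectors the Jag1 difference was -0.64. By label, it was -0.99 within vector control and -0.22 within CNOT7 over-expression, and that of Plcg2 was -1.66 and -0.36. Dusp4, a MAP kinase phosphatase, was 9.23, 9.57 and 9.82, against 9.82, 10.23 and 10.73, so that the classes barely separated. Dusp4 also differed between the vector types, by -0.65 (SE 0.16) for over-expression minus hairpin vectors. Their lists held few such members. Of 30 growth factor receptors and ligands, 2 were lower without overlap and 1 higher. The counts were 1 and 0 of 18 genes of Ras and MAPK feedback and 2 and 0 of 31 of the Wnt and Notch pathways. Over all probe sets, 3.12% were lower and 2.69% higher, so these counts lay near the background and say nothing about the pathways as a whole. The transcription factors Myb and Bhlhe41 were 1.43 and 1.08 lower. Csf1r, the receptor for the macrophage growth factor Csf1, was 6.36, 5.75 and 5.84, against 6.52, 7.06 and 7.44, a difference of -1.07.

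The remaining lower genes held enzymes, transporters and channels with smaller or less even differences. Klk8, a secreted serine protease, was 6.18, 6.36 and 6.92, against 6.94, 8.46 and 8.72, and differed by -2.45 within vector control but by -0.02 within CNOT7 over-expression. Atp2c2, a calcium pump of the Golgi membrane, was 7.79, 7.75 and 8.60, against 8.60, 9.16 and 9.65, and likewise differed by -1.88 and 0.00 within the labels. Tmem98, a membrane protein, was even in both classes, with 5.84, 5.68 and 5.72 against 6.88, 7.31 and 7.77. Gabrp, a GABA receptor subunit, was 5.58, 5.62 and 5.66, against 5.95, 6.82 and 8.56, and its spread lay among the epithelial cultures (SD 1.11, n = 6). The epithelial vector control and CNOT7 over-expression cultures had 6.01 and 6.22, and the epithelial hairpin cultures 5.95 to 8.56. Within the over-expression vectors the Gabrp difference was -0.49. Hs3st1, which modifies heparan sulfate, was 7.30, 7.49 and 7.67, against 8.19, 8.56 and 9.03. Fbxo2, a subunit of a ubiquitin ligase that binds glycoproteins, was 8.54, 8.25 and 8.31, against 9.05, 9.46 and 10.22. The others, Fam83b, Susd1, Trpm6, Xpnpep2, Dennd2d, Rasgef1b and C130073F10Rik, were lower by 1.01 to 1.34. Trpm6 differed by -1.40 within vector control but by -0.16 within CNOT7 over-expression.

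**Figure D2:**
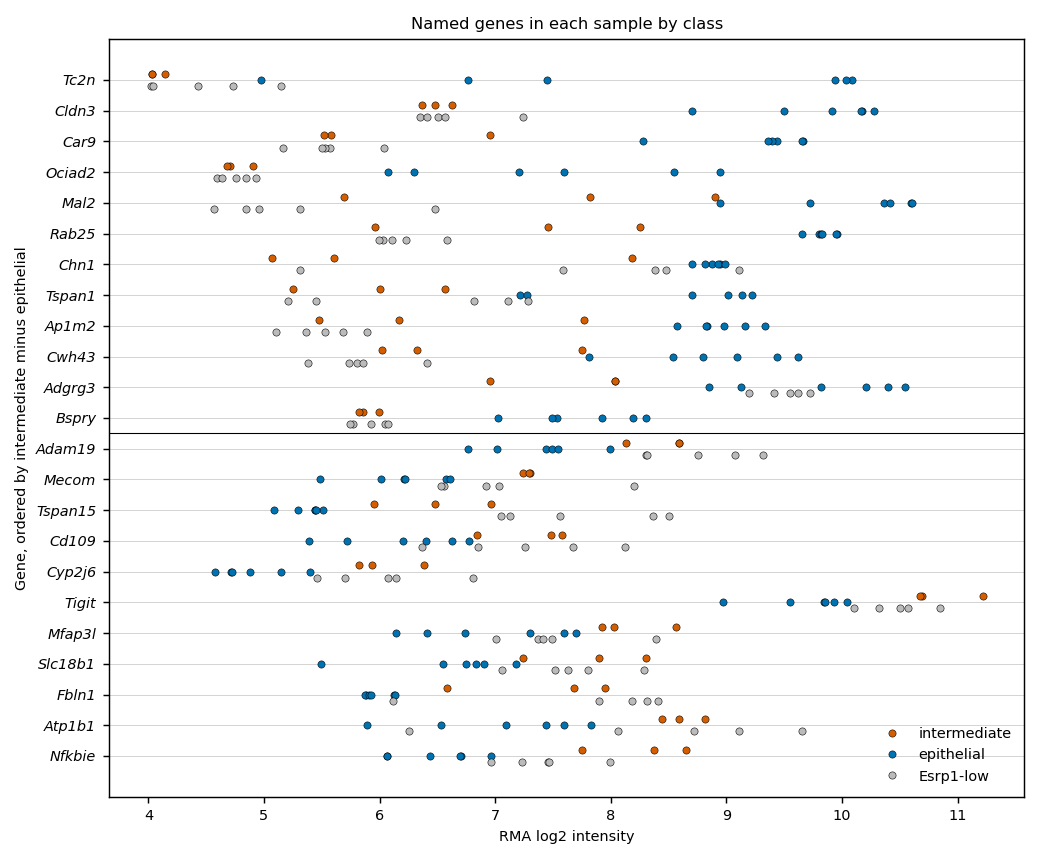
RMA log2 intensity (x axis) in each sample for the 12 lower and 11 higher named genes (y axis), with a row of points per class for every gene and a line between the lower and the higher genes. Orange and blue points do not overlap for any gene by the rule that chose them, and Rab25, Mal2, Chn1 and Ap1m2 show the widest spread among the 3 intermediate cultures.

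All 11 higher probe sets belonged to named genes. Nfkbie, an inhibitor of NF-kappa-B, was 8.37, 8.65 and 7.75, against 6.06, 6.57 and 6.97, a difference of 1.77, the largest in this direction. Atp1b1, the beta subunit of the sodium pump, was 8.44, 8.59 and 8.81, against 5.89, 7.26 and 7.83, a difference of 1.55. Fbln1, a matrix glycoprotein, was 6.58, 7.95 and 7.68, against 5.87, 5.92 and 6.14, a difference of 1.43. The epithelial cultures were nearly equal for Fbln1 (SD 0.12, n = 6), whereas vector control replicate 1 lay closest to them. Adam19, a membrane metalloprotease, was 8.13, 8.59 and 8.59, against 6.77, 7.46 and 7.99, a difference of 1.06. Mecom, a zinc finger transcription factor, was 7.24, 7.30 and 7.29, against 5.49, 6.22 and 6.61, and was the most even among the intermediate cultures (SD 0.03, n = 3). Cd109, a surface protein that binds TGF-beta, was 7.48, 7.57 and 6.84, against 5.39, 6.30 and 6.78. Tspan15, a tetraspanin that guides the protease Adam10, was 6.48, 6.96 and 5.95, against 5.09, 5.44 and 5.51. The other 4 differed by 1.14 to 1.2: they were Slc18b1, Mfap3l, Cyp2j6 and Tigit. Tigit encodes an inhibitory receptor of lymphocytes, yet its probe set was 10.70, 10.67 and 11.22 in these cultures, where Ptprc was near background.

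Mesenchymal genes did not lie higher together. Vim, the mesenchymal intermediate filament, was 11.43, 12.63 and 12.71, against 10.08, 11.29 and 12.19, so that the classes overlapped at a difference of 1.09. Zeb2, a repressor of epithelial genes, was 6.64, 7.44 and 8.03, against 6.16, 6.43 and 6.66, and vector control replicate 1 lay within the epithelial range. Zeb1 was 5.56, 5.43 and 5.24 and Snai1 was 8.19, 8.24 and 8.31, and both overlapped the epithelial cultures. The AP-1 subunit Fosl1 was 10.64, 10.32 and 10.57, against 9.49, 9.86 and 10.03, a difference of 0.67. Of 23 measured EMT transcription factors only Fosl1 was higher without overlap, and Snai2, near background, was 0.09 lower without overlap. Cdh2, N-cadherin, was near background at 4.05, 4.07 and 4.16. Eng, a co-receptor of TGF-beta, was 0.54 lower and the only one of 25 measured mesenchymal genes without overlap. The medians of the EMT factor and mesenchymal lists were -0.02 and 0.00. Among 33 matrix genes, Fbln1 and Ecm1 were higher without overlap and Fbln2 lower, with Ecm1 at 9.62, 9.35 and 9.08 against 7.88, 8.35 and 8.72. Csf1, a secreted growth factor of macrophages, was 10.70, 10.26 and 10.12, against 8.95, 9.41 and 9.89, a difference of 0.96. The protease inhibitor Timp2 and the integrin subunit Itga3 were 0.46 and 0.25 higher without overlap.

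Outside these lists, DNA replication genes showed small differences. Of 36 measured, 4 were lower without overlap and 0 higher, where 3.12% and 2.69% of all probe sets were. A lower mean was seen in 30, at a median of -0.11. The helicase subunit Mcm2 was 10.41, 10.45 and 10.49, against 10.73, 10.95 and 11.17, and Mcm5 was 0.34 lower. Of the 22 genes of fatty acid synthesis and lipid storage, 4 were lower without overlap, by 0.13 for Scd2 to 0.37 for Srebf1, a transcription factor that drives such genes. In the CCR4-NOT list, 0 of 19 measured members differed without overlap, and the median was -0.03. Interferon response genes had a median of -0.31, and 32 of 38 had a lower mean, but only Oasl1 and Stat2 did not overlap. The interferon median was -0.57 within the over-expression vectors and -0.19 without vector control replicate 2, whose mean level of the list, 7.82, was the highest of the epithelial cultures. With all 9 cultures this was the lowest median of any list, but without that culture polarity and membrane trafficking genes (-0.24) and cholesterol synthesis genes (-0.20) lay lower. Irf7, which drives interferon genes, was 8.98 in that culture and 5.55, 5.45 and 6.2 in the intermediate ones. As a measure of noise, 8 of 1027 olfactory receptor genes were lower without overlap and 11 higher, and 522 had a lower mean.

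**Figure D3:**
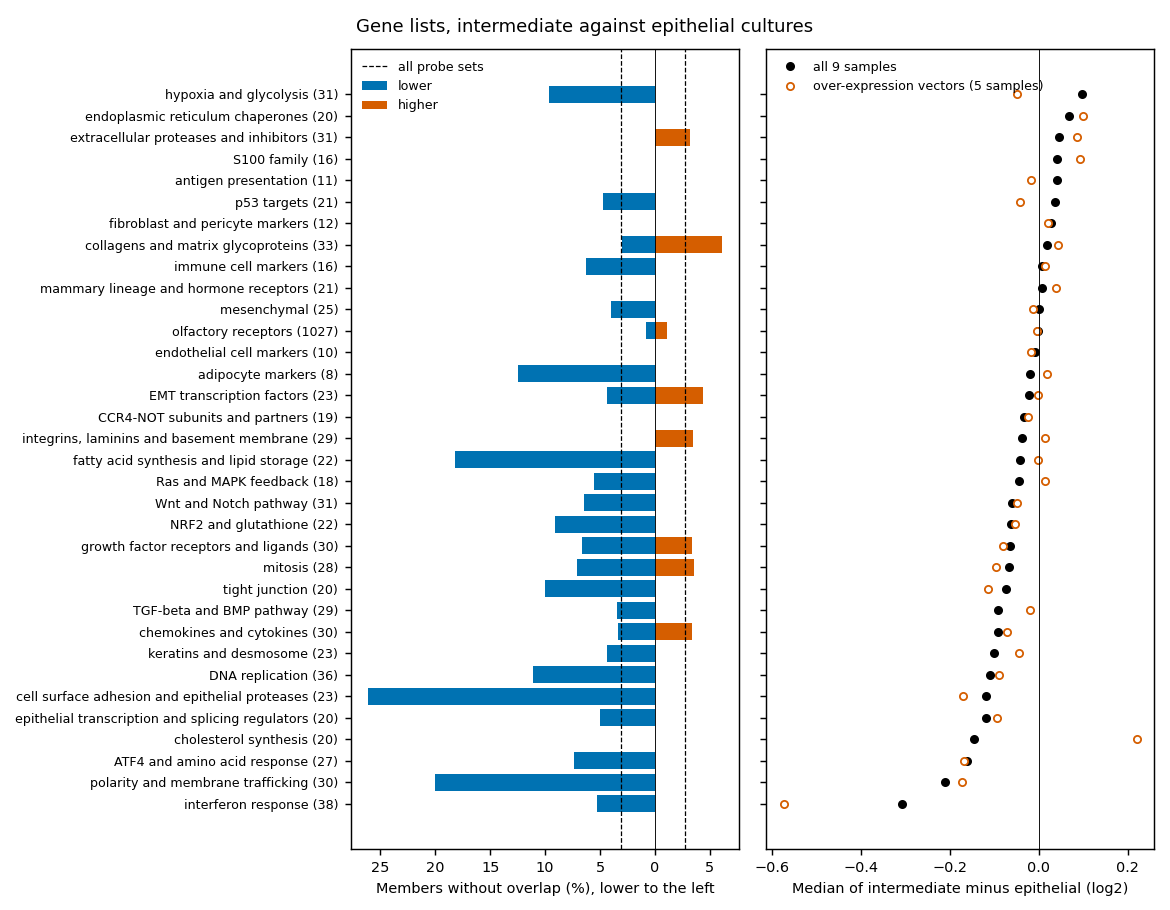
Left, the share of measured members of each gene list (y axis, number measured in brackets) that did not overlap between intermediate and epithelial cultures, lower to the left and higher to the right in percent, with dashed lines at the 3.12% and 2.69% of all probe sets. Right, the median difference (log2) over all 9 cultures and over the 5 with an over-expression vector, where the interferon list has the lowest medians, -0.31 and -0.57.

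The treatment was held equal by comparing cultures of the same label. Within vector control, 2 intermediate cultures stood against 1 epithelial, and within CNOT7 over-expression 1 stood against 1. All 43 lower probe sets had a lower mean in the intermediate cultures within each label, as the rule requires of them. The difference was at least 2-fold within both labels for 23 of these 43, and for 2 of the 11 higher ones. Over all probe sets, 30 were at least 2-fold lower within both labels (0.138%) and 10 at least 2-fold higher (0.0459%). The difference of Cldn3 was -3.73 within vector control and -3.13 within CNOT7 over-expression. The corresponding values were -3.17 and -3.87 for Car9, -2.70 and -2.36 for Rab25, and -2.71 and -2.67 for Ap1m2. Mal2 differed far less within vector control, -1.37, than within CNOT7 over-expression, -4.67, and Tc2n the other way, -5.86 against -2.74. The 2 higher genes were Fbln1, at 1.38 and 1.81, and Nfkbie, at 2.08 and 1.05.

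Some genes differed in opposite directions within the labels, where CNOT7 over-expression offers only 1 culture of each class. A total of 78 probe sets were at least 2-fold apart in opposite directions (0.358%), and Pearson's r of both differences across all probe sets was -0.06. Among the lists, 6 of 30 chemokine and cytokine genes, 5 of 31 extracellular protease and inhibitor genes and 2 of 38 interferon response genes did so, and 22 of the 33 lists held 0 such genes. Il1a, an alarmin cytokine, was 9.97 and 7.13 in the intermediate and 12.44 in the epithelial vector control cultures, but 12.19 in the intermediate and 6.97 in the epithelial CNOT7 over-expression culture. Lcn2, an iron-binding protein of the acute phase, was 6.2 and 7.83 against 11.17 within vector control, and 11.55 against 7.70 within CNOT7 over-expression. The matrix protease Mmp9 was 10.11 and 10.22 against 12.10 in the former and 11.57 against 7.48 in the latter. Id2, a helix-loop-helix inhibitor, went the other way, with 8.98 and 7.68 against 6.62, and 5.94 against 8.97. None of these 4 genes separated the classes, which follows from the opposite directions within the labels.

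**Figure D4:**
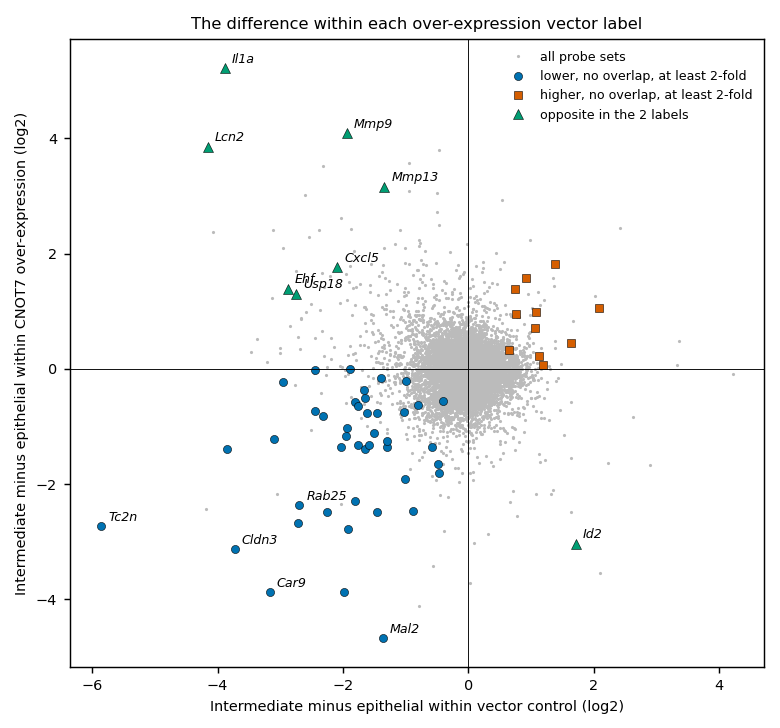
Intermediate minus epithelial difference (log2) of each probe set within vector control (x axis, 2 cultures against 1) and within CNOT7 over-expression (y axis, 1 against 1), with the 43 lower probe sets as blue circles, the 11 higher ones as orange squares and 8 genes with opposite differences as green triangles. Cldn3, Car9 and Rab25 lie far down on both axes, and Il1a and Lcn2 lie at -3.88 and -4.16 on the x axis and at 5.22 and 3.85 on the y axis.

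The 3 intermediate cultures also differed among themselves. Their range was at least 2-fold for 10 of the 43 lower probe sets and under 0.3 for 12, with a median range of 0.69. Vector control replicate 1 was the highest of the 3 for 20 of the 43, among them Rab25, Mal2, Ap1m2, Tspan1, Cwh43 and Epcam, although its Cldn7 was as low as that of vector control replicate 3. Serpinb5, an epithelial protease inhibitor, showed the same order, with 8.33 in vector control replicate 1 against 4.95 and 6.2 in the others, and overlapped the epithelial range of 6.78 to 9.15. CNOT7 over-expression replicate 2, which had the highest Cldn7, had the lowest Mal2, at 5.69, and the lowest Epcam, at 8.02. Over all probe sets, 39 were at least 2-fold higher in vector control replicate 1 than in both others and 39 at least 2-fold lower, while 12 and 14 were so in vector control replicate 3 and 50 and 31 in CNOT7 over-expression replicate 2.

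For 35 of the 43 lower and 10 of the 11 higher probe sets, the values of the intermediate cultures overlapped those of the Esrp1-low cultures. All 3 intermediate cultures lay inside the Esrp1-low range for 11 of the 43 and 5 of the 11. Ankrd22, at 5.61, 5.29 and 5.47, was the only one of the 43 with every intermediate culture above the Esrp1-low range, 5.05 to 5.27. Of the higher ones, Tspan15 lay between the classes, with Esrp1-low values of 7.05 to 8.5. A further 7 of the 43 were lower in every intermediate culture than in every other culture of the series. Zfp518b, a zinc finger gene, was 5.41, 5.16 and 5.39, against 6.78, 7.02 and 7.68 in the epithelial and 6.58 to 7.18 in the Esrp1-low cultures. Adgrg3, an adhesion G protein-coupled receptor, was 6.96, 8.04 and 8.03, against 8.85, 10.02 and 10.54 and against 9.20 to 9.72. Man1c1, a Golgi mannosidase, was 5.93, 6.34 and 5.61, against 6.61, 7.18 and 7.91, and was highest in the Esrp1-low cultures, at 7.64 to 9.08. Vwa5a was 6.96, 7.75 and 7.36, against 8.0, 8.67 and 8.97 and against 8.33 to 9.70. The others were Capn5, a calpain protease, Iqgap2, a scaffold of Rac and Cdc42, and Gab1. For Iqgap2 and Gab1 the gap to the Esrp1-low cultures was small, 5.68 against 5.77 and 6.72 against 6.74.

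**Figure D5:**
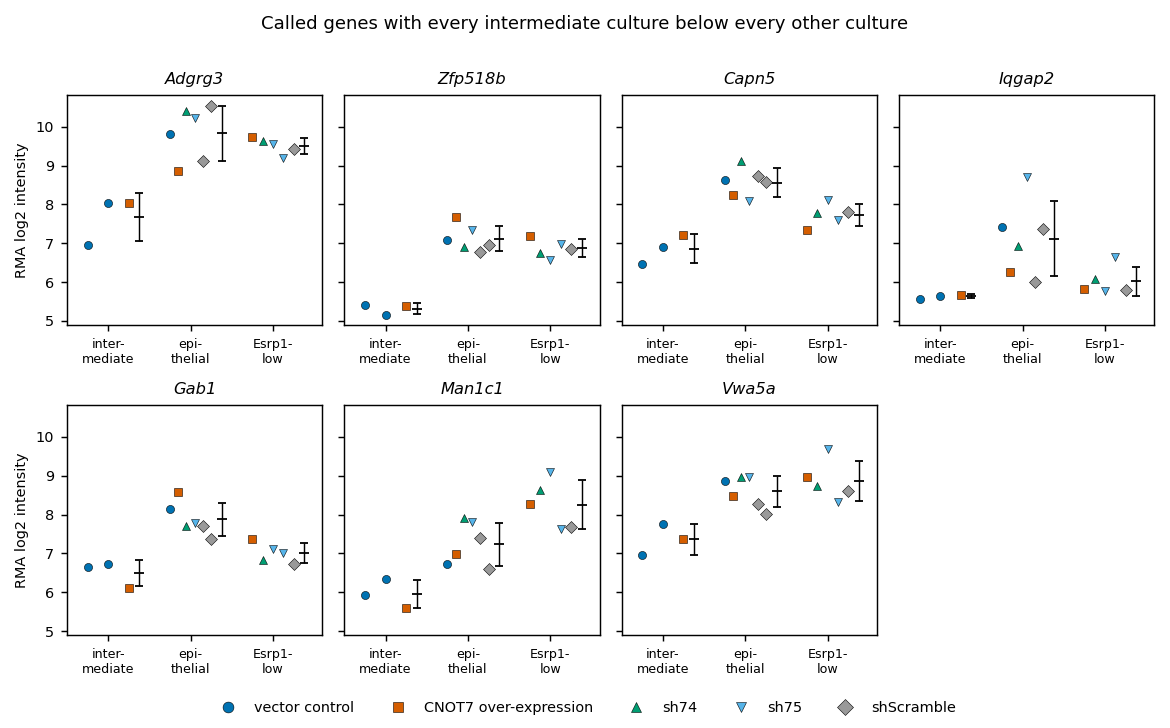
RMA log2 intensity (y axis) of Adgrg3, Zfp518b, Capn5, Iqgap2, Gab1, Man1c1 and Vwa5a in the 14 samples by class (x axis), colored by treatment, with the mean ± SD of each class. In every panel the 3 intermediate cultures, all with an over-expression vector, lie below the other 11, with the widest gap for Zfp518b (5.41 against 6.58).

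Because every intermediate culture carried an over-expression vector, the vector type was tested by the labels alone, which sets Cnot7 hairpins as well as shScramble against these vectors. In limma, the mean of the vector control and CNOT7 over-expression groups (6 samples) was compared with the mean of the sh74, sh75 and shScramble groups (8 samples), with p-values adjusted by the Benjamini-Hochberg method over 21789 probe sets. By an adjusted p under 0.05, 41 probe sets were higher (0.188%) and 27 lower (0.124%) with the over-expression vectors, counts that changed greatly when a sample was left out, to 138 and 134 without sh74 replicate 2 and to 4 and 0 without sh75 replicate 1. Of the 54 probe sets that separated intermediate from epithelial cultures, 0 were among them, and 8 had an unadjusted p under 0.05 (14.8%), against 2542 of all 21789 (11.7%). The intermediate cultures are part of the over-expression vector groups, so the comparisons share samples. Every label group also held cultures of more than 1 class. A gene with a large class difference thus had a wide spread within groups and was less likely to be called, as for Mal2 (SE 1.36). The count of 0 therefore cannot decide what part the vector type has in the class differences. The lowest adjusted p of the 54 was that of Mfap3l, which was 1.1 higher with the over-expression vectors (SE 0.24, adjusted p = 0.0961). Between the classes within those vectors it differed by 0.52. For Rab25 the difference between vector types was -0.09 (SE 1.02, adjusted p = 0.985) and for Cldn3 it was -0.56 (SE 0.98, adjusted p = 0.892).

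Cnot7, the targeted gene, was 10.07, 10.15 and 10.02 in the intermediate cultures. In the epithelial cultures without a Cnot7 hairpin it was 10.52 in vector control replicate 2, 10.64 in CNOT7 over-expression replicate 1, and 10.44 and 10.33 in the shScramble cultures, and it was 9.33 and 7.52 in the sh74 and sh75 cultures. The intermediate values lay below all 4 epithelial cultures without a Cnot7 hairpin and above both with one, and mouse probes need not detect the human construct. The hairpin groups include both Cnot7 hairpins, so the contrast of vector types also holds the knockdown: Cnot7 was 7.52 to 9.33 in the 5 sh74 and sh75 cultures but 10.44, 10.33 and 10.2 with shScramble, level with the 10.02 to 10.64 of the over-expression vectors. In that contrast the Cnot7 difference was 1.12 (SE 0.17, adjusted p = 0.0378). With 1 sample left out, the Cnot7 difference passed the threshold only without sh74 replicate 2 or sh75 replicate 2.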

How the data were processed

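Gene expression of 14 samples of 4T1 cells was measured on single-color Affymetrix mouse gene arrays. The authors processed the arrays with RMA in the R package oligo and deposited log2 values, which were used without further normalization. RMA equalizes the distribution of the arrays, so a change shared by most genes would not be seen. Versions and the genome build behind the array were not given in the sources used here. Of 35556 probe sets, 21789 paired with 1 gene symbol in the platform annotation and were used, 1621 paired with several and 12146 with none. Where a gene had several, the one of highest mean stood for it. Entrez identifiers of 21698 probe sets were found in the RefSeq gene table, and 0 symbols differed.

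Treatments came from the sample labels and the 2 classes from the values of Esrp1 and Cldn7. The members, gene lists, motifs and tests were chosen with earlier results of these data known. A probe set was called when the classes did not overlap and their means were at least 1 apart on the log2 scale. Genes were named as the 12 largest differences each way among called probe sets with a higher group mean of at least 6, leaving out Esrp1, Cldn7, predicted genes, small RNAs, olfactory receptors and histones, to which Rab25, Cnot7, and members of the 33 gene lists with large differences were added. Other called genes and genes shown as a contrast were picked after their values were seen. The vector type was tested with limma 3.58.1 in R 4.3.3 on 5 groups (9 residual and 2.09 prior degrees of freedom, two-sided), which was tested on simulated data, and its p-values reflect no more than the spread of these samples, which may be technical. Promoters came from a RefSeq table of build GRCm38.p6. The alternatives were leaving out each culture, over-expression vectors only, a 1.5-fold limit, thresholds of 8.5 and 9.5, a filter on dim probe sets, a second quantile normalization, group medians, 1 probe set per gene, and for the vector type a 2-group fit and the methods' t-test. Python 3.11.15 and pandas 2.3.3 were used.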

Additional observations from a re-analysis of the deposited data

Results flagged for a closer look

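Car9 in shScramble replicate 1, at 8.28, lay apart from the other 5 epithelial cultures, which ran from 9.36 to 9.67, with a gap of 0.777 of the range of the group. The limit used for flagging is one that about 1 of 20 groups pass by chance, and this gap lay above it. Of the 24 named genes, 1 passed the limit.

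For 17 genes of the lists, every intermediate culture differed from the epithelial one at least 2-fold within each over-expression vector label, in opposite directions. The difference between the labels was not tested, since CNOT7 over-expression held 1 culture of each class. The difference within vector control minus that within CNOT7 over-expression was -9.11 for Il1a, -8.01 for Lcn2, -4.46 for Csf3, -3.85 for Cxcl5 and -2.68 for Csf2, all secreted factors of inflammation. It was -6.03 for Mmp9, -4.50 for Mmp13 and -2.61 for Serpinb2, among genes of extracellular proteolysis, and -4.05 for Usp18, -3.86 for Psmb8 and -3.21 for Trim30a, which interferon induces. It was -4.27 for the epithelial factor Ehf, -3.65 for the cystine transporter Slc7a11, -3.15 for Myo1d and -2.20 for Bmp7. In Id2 and Adamts1 it had the other sign, 4.75 and 2.67.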

How the results depend on the processing

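The 43 lower and 11 higher probe sets numbered 40 to 60 and 10 to 24 when 1 culture was left out, with the highest counts without CNOT7 over-expression replicate 2. For the higher probe sets the count was also 23 and 24 when vector control replicate 1 or replicate 2 was left out. A limit of 1.5-fold gave 128 and 52, and the over-expression vectors alone gave 69 lower ones. Fewer cultures and a smaller limit admit more probe sets by construction. All other counts of the class comparison stayed within 1.5 times. Of the differences of the named genes under the alternatives, 334 moved by less than the spread of the cultures and 2 by more. Both of these were within the over-expression vectors, where Bspry was -2.36 and Mfap3l 0.52. The Cnot7 difference did change sign, for example from 0.28 over all 9 cultures to -0.50 within the over-expression vectors. Of the other named genes, 0 changed sign. Among the medians of the gene lists 1 moved, cholesterol synthesis from -0.15 to 0.22 within the over-expression vectors.

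For the vector type, leaving out 1 sample gave 4 to 138 higher and 0 to 134 lower probe sets, against 41 and 27. Fitting 2 groups in place of 5 gave 4 and 5, and the methods' t-test after Benjamini-Hochberg adjustment gave 1 and 0, with 2002 at an unadjusted p under 0.05. The Cnot7 difference stayed between 1.02 and 1.22 with any sample left out. With the title number as a replicate block, the 5-group contrast could not be estimated, because numbers link vector control only with sh74 and CNOT7 over-expression only with sh75 and shScramble. The replicate block in the 2-group fit, added after seeing the data, gave 2 higher and 0 lower probe sets, while 2867 passed 0.05 before adjustment. Over the 13 pairs of samples from different groups with the same number, deviations from the group means correlated at -0.30 to 0.59, and 4 of 12 samples correlated best with a sample of their own number, so the numbers were not taken as pairs.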
